A study of Mus musculus with 8 samples.

Results

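Respiratory complex I, the NADH:ubiquinone oxidoreductase of the inner mitochondrial membrane, was examined through its nuclear subunit genes in mouse haematopoietic stem cells. The set held every protein-coding gene with a mouse GENCODE symbol of the Nduf families a, b, c, s and v followed by a number, or Ndufab1, that had 10 or more counts in at least 4 of 8 libraries. 37 genes carried such a symbol and all 37 met the count minimum, out of 53715 genes in the files, of which 14086 met it. The lowest count of any of the 37 genes in any library was 854 fragments and the highest was 20197, so the minimum excluded none of them. The 37 genes lay on 15 chromosomes, with Ndufa1 and Ndufb11 on the X chromosome.

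Complex I takes electrons from NADH, passes them to ubiquinone and pumps protons out of the mitochondrial matrix. Its matrix arm has an N module, which oxidises NADH, and a Q module, which reduces ubiquinone, and its membrane arm has proximal and distal parts that carry the proton pumps. A conserved catalytic core is encoded partly in the nucleus and partly in the mitochondrial genome, and the accessory subunits around it, which take part in assembly and stability, are all nuclear. Quiescent haematopoietic stem cells are known for low mitochondrial respiration and a large share of ATP from glycolysis.

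RNA came from bone marrow stem cells sorted as LSK (lineage-negative, Sca-1-positive, Kit-positive), CD48-, CD150+, 1 library a mouse. 4 libraries were from Gata2; Mx1-Cre heterozygotes and 4 from WT mice, and mice of both genotypes were 8 to 12 weeks old and had been given 6 doses of pIpC, a double-stranded RNA mimic that induces interferon. Gata2 is a zinc-finger transcription factor needed by blood stem cells, and Mx1-Cre is a recombinase switched on by interferon in stem cells and in many other cells. The labels name Mx1-Cre for the heterozygotes alone and do not say whether WT mice carried it. If they did not, the transgene and the Gata2 allele cannot be told apart.

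Levels of a gene are given in CPM, its fragments relative to the library's scaled size, or in TPM, which also divides by gene length. Fragments assigned to genes numbered 16750778 to 20042384 in heterozygote libraries and 19037864 to 22861884 in WT libraries. Gata2 averaged 44.8 ± 12.2 CPM in heterozygote libraries and 35.8 ± 7.65 CPM in WT libraries (SD, n = 4 each), a log2 fold change of 0.33 (SE 0.23, edgeR adjusted p = 0.858). The gene was therefore not lower in the libraries labelled heterozygote, and every direction given here follows the labels. All 11 stem cell markers listed were tested, with summed levels of 622 to 712 TPM in heterozygote libraries and 558 to 791 TPM in WT libraries. The 6 megakaryocyte and platelet markers, all tested, summed to 1574 to 2494 TPM in heterozygote libraries and 2109 to 2859 TPM in WT libraries. Most of that sum was Pf4, at 1478 to 2352 TPM in heterozygote libraries and 1933 to 2716 TPM in WT libraries. Of 8 erythroid markers 7 were tested and Slc4a1 had no counts, with sums of 59.5 to 138 TPM in heterozygote libraries and 103 to 199 TPM in WT libraries. Of 8 granulocyte and monocyte markers 7 were tested and Csf1r and Ly6g were under 1 TPM, with sums of 760 to 1154 TPM in heterozygote libraries and 919 to 1096 TPM in WT libraries. Lyz2 made up most of them, at 642 to 697 TPM in heterozygote libraries and 632 to 829 TPM in WT libraries. Of 8 lymphoid markers Cd79b and Nkg7 were tested, while Cd3e and Il7r had no counts, and the sums were 1081 to 1621 TPM in heterozygote libraries and 922 to 1348 TPM in WT libraries. Nkg7 alone gave most of these sums, at 892 to 1401 TPM in heterozygote libraries and 695 to 1132 TPM in WT libraries. Of 6 endothelial and stromal markers 3 were tested, with sums of 10.4 to 18.4 TPM in heterozygote libraries and 13.8 to 23.1 TPM in WT libraries. The part of other cells in the complex I values was not tested.

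No complex I subunit gene passed the test between genotypes, and no gene of the whole table did. Of 13992 genes tested, edgeR's quasi-likelihood test called 0 (0% of the table) at an adjusted p under 0.05. At an unadjusted p under 0.05 it gave 792 genes (5.66%), while after adjustment DESeq2 called 29 genes (0.207%) and limma-voom 0. None of the 37 subunit genes was among any of these. Unadjusted values under 0.05 came from DESeq2 for 1035 genes (7.40%) with no subunit gene among them, from limma-voom for 1412 genes (10.1%) with 3 subunit genes, and from edgeR with the replicate number as a block for 946 genes (6.76%) with 2 subunit genes, in each case a smaller share of the subunits than of all genes. Heterozygote and WT libraries did not overlap for 485 genes (3.47%), again with no subunit gene among them. The estimates for the subunits were nevertheless mostly on one side: 32 of 37 had a log2 fold change above 0, against 48.0% of all genes tested, and their median was 0.13 against -0.02 for all genes. Among the 5 below 0 were Ndufv1, the lowest at -0.27, Ndufa9 and Ndufa11, the last at -0.00. This median moved with single WT libraries, to 0.06 without WT replicate 2 and 0.25 without WT replicate 3, and it was 0.09 without Heterozygote replicate 3 and 0.08 with scaling by library size alone. The positive estimates numbered between 25, without WT replicate 2, and 34.

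**Figure D1:**
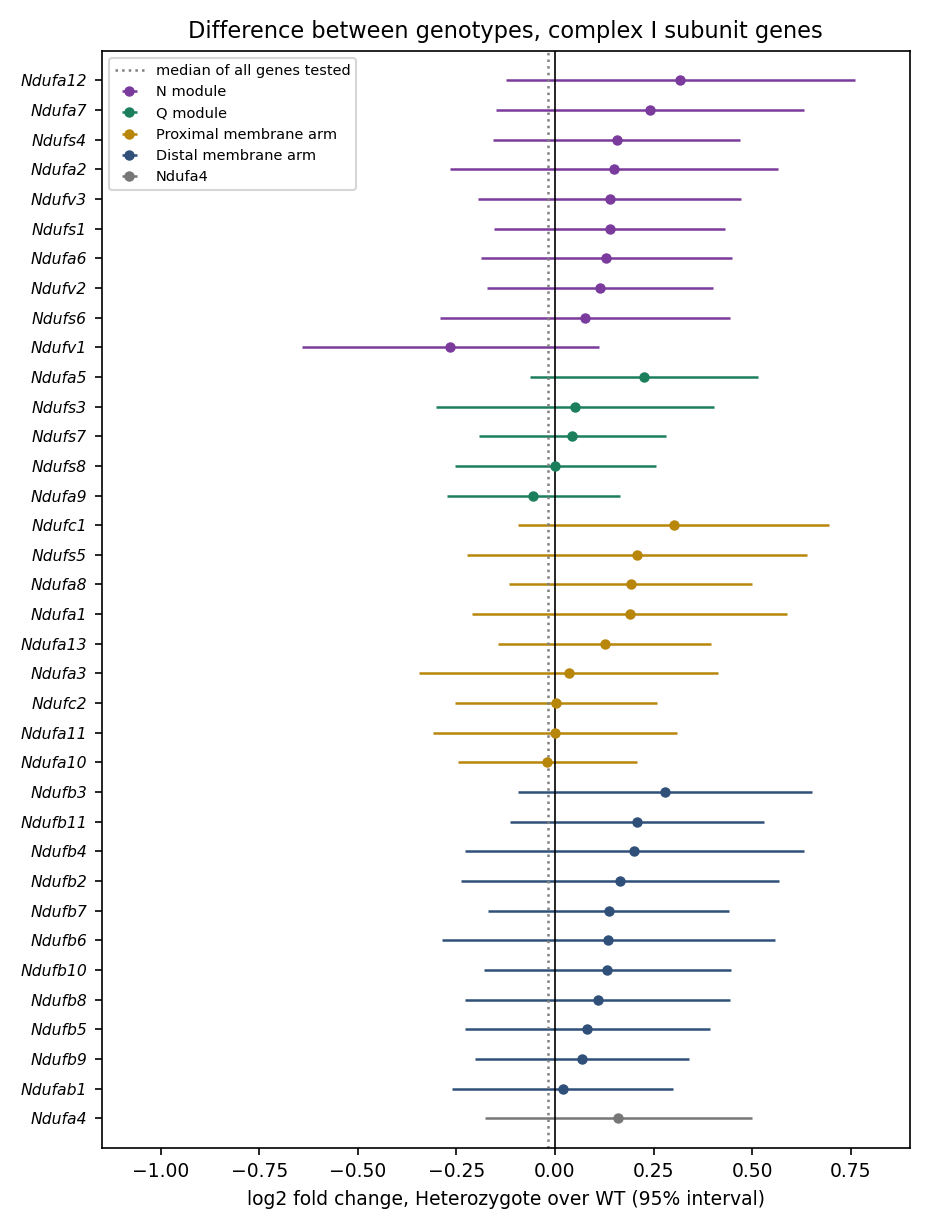
Log2 fold change of 36 complex I subunit genes, Heterozygote over WT (x axis), with genes down the page grouped by role; points are edgeR estimates from 4 heterozygote and 4 WT libraries, bars their 95% intervals and the dotted line the median of all genes tested. 32 points lie above 0, every interval crosses 0, and Ndufv1 lies farthest below it at -0.27.

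The intervals bound what could have been missed. The 95% interval of the fold change lay inside 1.5-fold in either direction for 29 of 37 genes and inside 2-fold for all 37. The 8 genes whose interval reached 1.5-fold were Ndufa12, Ndufa1, Ndufa7, Ndufc1, Ndufb3, Ndufv1, Ndufb4 and Ndufs5. Across the set the highest upper bound was a fold of 1.69, for Ndufa12, and the lowest lower bound was a fold of 0.641, for Ndufv1. In bulk RNA, fewer cells of a type and less RNA per cell cannot be told apart.

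The subunit genes differed far more from each other than between genotypes. On a scale of TPM with exonic length, which allows genes to be compared, the median gene of the set stood at 442 TPM, at the 97.1st percentile of genes tested. Ndufa12 had the highest mean over the 8 libraries, with 1600 ± 211 TPM in heterozygote libraries and 1329 ± 285 TPM in WT libraries (SD, n = 4 each). Ndufa1, a small membrane subunit needed for assembly, followed with 1488 ± 133 TPM in heterozygote libraries and 1352 ± 238 TPM in WT libraries, within the spread of Ndufa12 and above it in the WT mean. At the low end were Ndufs1, the largest nuclear core subunit and the carrier of several iron-sulfur clusters, with 47.0 ± 5.29 TPM in heterozygote libraries and 44.6 ± 2.17 TPM in WT libraries, and Ndufb2, with 40.0 ± 3.23 TPM in heterozygote libraries and 37.0 ± 5.86 TPM in WT libraries. The highest mean was 38.0 times the lowest, and the 5 highest genes held 32.8% of the summed TPM of the set.

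Part of this order depended on the length used. Complex I subunit genes were short, with a median exonic length of 1495 bases, or 908 bases for the principal transcript, against 3701.5 and 2602.5 bases over all genes tested. With the principal transcript length Ndufa4 ranked 1, Ndufa12 4 and Ndufa1 6, while Ndufs1 and Ndufb2 kept ranks 36 and 37. The Spearman correlation between both orders, over 37 genes that share the same libraries, was 0.803. As a share of all fragments the set took 1.01, 1.08, 1.14 and 1.07% in heterozygote replicates 1 to 4, and 0.968, 0.903, 1.16 and 1.07% in WT replicates 1 to 4. WT replicates 2 and 3 were the lowest and the highest of the 8, and the heterozygote shares lay between them.

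**Figure D2:**
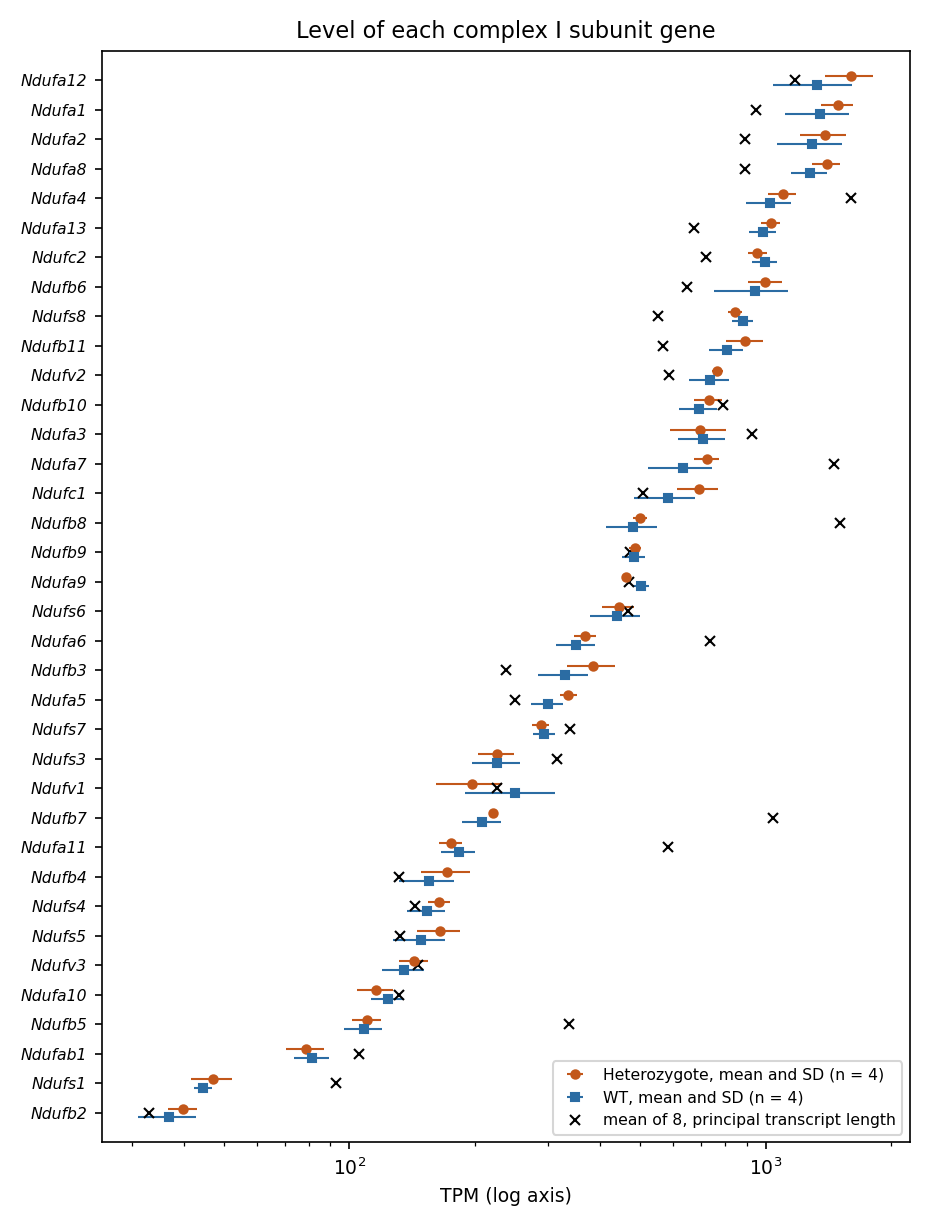
Level of 36 complex I subunit genes in TPM (log x axis), ordered by the mean of 8 libraries with the highest at the top; circles and squares are means of 4 heterozygote and 4 WT libraries with SD, and crosses the mean with principal transcript length. Ndufa12 averages 1600 TPM in heterozygote and 1329 TPM in WT libraries and Ndufb2 40.0 and 37.0 TPM, and the 2 genotypes lie close together beside the range between genes.

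Library by library, the subunit genes shared a common pattern. WT replicate 2 was the lowest library for 28 of 37 genes, WT replicate 3 the highest for 21 and Heterozygote replicate 3 the highest for 8. The median deviation of the 37 genes from their own means over 8 libraries was -0.05, 0.08, 0.20 and 0.07 on the log2 scale in heterozygote replicates 1 to 4, and -0.19, -0.35, 0.25 and 0.03 in WT replicates 1 to 4. The WT group thus held both ends of the range. In 21 of 37 genes every heterozygote library lay inside the WT range, a larger share than the 24.0% of all genes tested. Within genotypes the median ratio of the highest to the lowest library was 1.25 in heterozygotes and 1.55 in WT, and the range was wider in WT for 34 of 37 genes. A wider comparison took the 3690 genes tested with a mean at or above the lowest of the set, 52.8 CPM, and no upper limit. Over these genes the ratios were 1.34 in heterozygotes and 1.46 in WT, with a wider WT range in 64.8%.

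**Figure D3:**
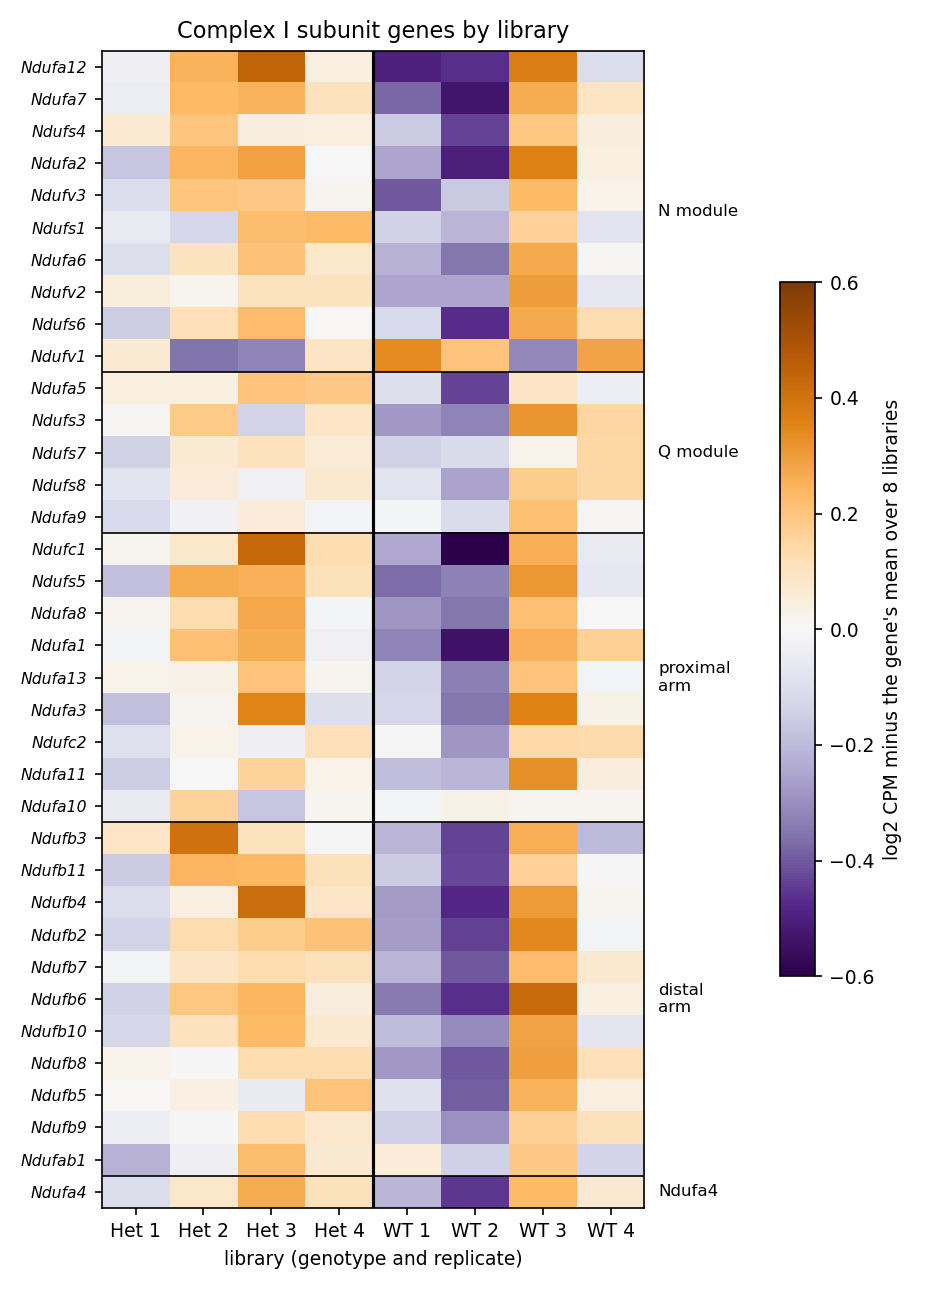
Log2 CPM of 36 complex I subunit genes, each minus its mean over 8 libraries (colour), with 4 heterozygote libraries left of 4 WT libraries and genes grouped by role. Nearly the whole column of WT replicate 2 is low and that of WT replicate 3 high, with median deviations of -0.35 and 0.25, while Ndufv1 runs the other way.

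A gene's SD over the 8 libraries had a median of 0.22 on the log2 scale. Over 3690 genes tested at or above the lowest mean CPM of the set it was 0.24. In the set it was 0.11 once the median deviation of each library was subtracted. That fall is partly built in, since those medians come from the same genes. Ndufa6, an N module subunit that binds the mitochondrial acyl carrier protein, followed the common pattern most closely, with 0.02 left over. Ndufv1, the catalytic core subunit that binds NADH and the flavin that first accepts its electrons, departed from it most, with 0.46. The same libraries also differed in base composition. Over all genes tested, deviation from the gene mean correlated with GC content at values between -0.10 and -0.03 in heterozygote libraries, and at 0.18, 0.23, -0.16 and 0.04 in WT replicates 1 to 4 (Pearson, across genes, which are not independent). With each library's trend on GC content and length removed, the median deviations of the set were -0.06, 0.06, 0.15 and 0.08 in heterozygote replicates 1 to 4 and -0.12, -0.28, 0.16 and 0.01 in WT replicates 1 to 4. The order of the lowest and highest libraries therefore stayed in place with smaller distances, and 30 of 37 genes then had an estimate above 0, with a median of 0.10. Estimates of several single genes shrank, to 0.04 for Ndufa1, 0.11 for Ndufb3, 0.17 for Ndufc1, 0.08 for Ndufs1 and 0.10 for Ndufb2. Ndufa12 changed little, to 0.30, and Ndufa9 moved farther below 0, to -0.095. Over the 37 genes the log2 fold change had a Spearman correlation of -0.38 with GC content and -0.33 with exonic length, as a description of genes measured in the same libraries. The 5 lower genes had a median GC content of 54.1%, and the higher ones 49.8%.

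Promoter sequences were read for the set because its genes moved together across libraries. Nuclear respiratory genes are known for promoters with sites for NRF1, the ETS factor GABPA, YY1 and Sp1. Windows from 250 bases before to 50 bases after the start were taken from RefSeq (GRCm38.p6) for 33 of the 37 genes, which gave 35 windows beside 32817 windows of all genes. Both strands were searched for exact letters, and matches to different motifs were allowed to overlap. The NRF1 letters, GCGC then any base then TGCGC, were found in 8 windows (22.9%, against 4.59% of all windows), in Ndufa5, Ndufa6, Ndufa8, Ndufa11, Ndufb4, Ndufs5 and Ndufs6. For Ndufa5 the same match was counted in both of its windows, which overlap. The YY1 letters AAGATGGCG were found in 5 windows (14.3%, against 1.4% of all), in Ndufa9, Ndufc1, Ndufs4, Ndufs6 and Ndufs7, on the gene's own strand at 22 to 35 bases after the start in each. The ETS letters CCGGAAG were found in 4 windows (11.4%, against 8.86% of all), in Ndufb6, Ndufb7, Ndufs3 and Ndufs8. The Sp1 letters GGGCGG were found in 16 windows (45.7%, against 35.6% of all). Of the 33 genes 15 had a match to NRF1, ETS or YY1 letters and 18 had none. Counted by window rather than by gene, 13.5% of all windows had one. The windows of the set had a median GC content of 59%, against 52.67% in all windows.

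4 of these promoters are shown, each as the 250 bases before the start on the gene's own strand. Ndufb4 carries 3 NRF1 matches, first bases 191, 79 and 22 before the start, the most of the set. Ndufa5, with the smallest exact p of the set, carries 1 at 26 bases before the start used here. Ndufs3 carries an ETS match 27 bases before its start. Another lies on the other strand, 1 base after the start and outside the bases shown. Ndufv1, which departed most from the common pattern, is 1 of the 18 genes among 33 with none of the NRF1, ETS or YY1 letters. Ndufb10 and Ndufa13, which followed the pattern closely (SD of 0.05 left over in each), also have none. Ndufa6 and Ndufb7, which followed it more closely (0.02 and 0.04), have an NRF1 match and an ETS match. Ndufa10 and Ndufa12, with 0.23 and 0.18 left over, have none, while Ndufs3, with 0.15, has ETS matches. A link between these letters and the library pattern was not tested. Capitals mark the matched letters, read on either strand. All 4 genes lie on the minus strand, at chr16:37654369-37654618 for the Ndufb4 window, chr6:24527691-24527940 for Ndufa5, chr2:90904722-90904971 for Ndufs3 and chr19:4012756-4013005 for Ndufv1 (GRCm38.p6). A match is a run of letters, and binding was not measured.
Ndufb4: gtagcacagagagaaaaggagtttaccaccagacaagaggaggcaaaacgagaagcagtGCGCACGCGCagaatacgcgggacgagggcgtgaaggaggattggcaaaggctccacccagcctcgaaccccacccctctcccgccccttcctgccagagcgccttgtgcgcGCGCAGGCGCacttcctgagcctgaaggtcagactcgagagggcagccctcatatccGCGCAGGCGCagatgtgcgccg
Ndufa5: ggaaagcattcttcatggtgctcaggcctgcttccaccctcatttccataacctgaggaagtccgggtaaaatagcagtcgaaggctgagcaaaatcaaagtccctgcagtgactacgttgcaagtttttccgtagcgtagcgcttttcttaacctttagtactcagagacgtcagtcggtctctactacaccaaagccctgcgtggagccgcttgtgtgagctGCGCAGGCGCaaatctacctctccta
Ndufs3: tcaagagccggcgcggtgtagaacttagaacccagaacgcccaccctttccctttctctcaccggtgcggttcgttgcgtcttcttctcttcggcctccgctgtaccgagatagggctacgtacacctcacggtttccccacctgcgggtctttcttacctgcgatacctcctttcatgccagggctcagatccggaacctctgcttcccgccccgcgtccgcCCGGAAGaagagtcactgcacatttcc
Ndufv1: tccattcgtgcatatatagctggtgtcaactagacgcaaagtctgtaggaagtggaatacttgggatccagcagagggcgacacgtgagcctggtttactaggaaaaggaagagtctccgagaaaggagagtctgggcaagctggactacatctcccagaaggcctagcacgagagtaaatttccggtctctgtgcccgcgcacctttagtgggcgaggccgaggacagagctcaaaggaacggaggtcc

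In the N module, which oxidises NADH at the tip of the matrix arm, 9 of 10 genes had estimates above 0 and 1 below it, with a median log2 fold change of 0.14. Ndufa12 (chr10:94198955-94221443, plus strand, GRCm38), an accessory subunit that joins the N and Q modules, had the largest estimate of the whole set. Its level was 729.9, 888, 1013 and 765 CPM in heterozygote replicates 1 to 4, against 527, 539, 967 and 692 CPM in WT replicates 1 to 4. WT replicates 1, 2 and 4 lay below every heterozygote library and WT replicate 3 above all but 1 of them, so the groups overlapped. The log2 fold change was 0.32 (SE 0.20, edgeR adjusted p = 0.851), and an exact two-sided permutation test over the 70 assignments gave p = 0.171, where 0.0286 is the smallest value possible. Without WT replicate 3 the estimate was 0.54, with an edgeR adjusted p of 0.203.

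Ndufv1 (chr19:4007497-4012806, minus strand, GRCm38) was the 1 N module gene below 0. It had 223, 166, 171 and 227 CPM in heterozygote replicates 1 to 4, against 269.5, 246, 171 and 259.5 CPM in WT replicates 1 to 4. Heterozygote replicates 2 and 3 and WT replicate 3 formed the low end, and the other 3 WT libraries lay above every heterozygote library. The log2 fold change was -0.27 (SE 0.17, exact permutation p = 0.171), and -0.10 with the GC and length trends removed. Ndufv2, its partner with an iron-sulfur cluster, pointed the other way at 0.11, and Ndufs1, the third core subunit of the module, at 0.14. Ndufs1 had 138, 131, 167 and 168 CPM in heterozygote replicates 1 to 4, against 129.9, 123, 160.1 and 135 CPM in WT replicates 1 to 4. The estimates of the other accessory genes ran from 0.08 for Ndufs6, a zinc-binding subunit added late in assembly, to 0.24 for Ndufa7. Ndufs4, whose loss causes Leigh syndrome in people and a like disease in mice, stood at 0.16, and Ndufa2, Ndufa6 and Ndufv3 lay between 0.13 and 0.15.

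The Q module, where electrons reach ubiquinone, had 4 of 6 genes above 0, 2 below and a median of 0.02. The sign of that median was not stable: it was -0.04 with scaling by library size alone, -0.01 without Heterozygote replicate 2, -0.02 without WT replicate 1 and -0.04 without WT replicate 2, and 0.08 with the GC and length trends removed. Ndufa5 (chr6:24518666-24528013, minus strand, GRCm38), an accessory subunit of the matrix arm, had the smallest exact p of the set. Its level was 130.4, 130.3, 145.9 and 145 CPM in heterozygote replicates 1 to 4, against 119, 93.8, 135 and 124 CPM in WT replicates 1 to 4. Only WT replicate 3 lay inside the heterozygote range, and the other 3 WT libraries lay below it. The log2 fold change was 0.23 (SE 0.13, edgeR adjusted p = 0.850, exact permutation p = 0.0857).

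Ndufa9, which helps join the matrix arm to the membrane, had 362, 387, 407 and 389 CPM in heterozygote replicates 1 to 4, against 389.9, 363, 458 and 394 CPM in WT replicates 1 to 4. The genotypes covered nearly the same values, and the log2 fold change was -0.06 (SE 0.10, exact permutation p = 0.543) and 0.01 without WT replicate 3. The iron-sulfur subunits Ndufs7 and Ndufs8, which carry the last clusters before ubiquinone, stood at 0.04 and 0.00, and the core subunit Ndufs3 at 0.05.

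**Figure D4:**
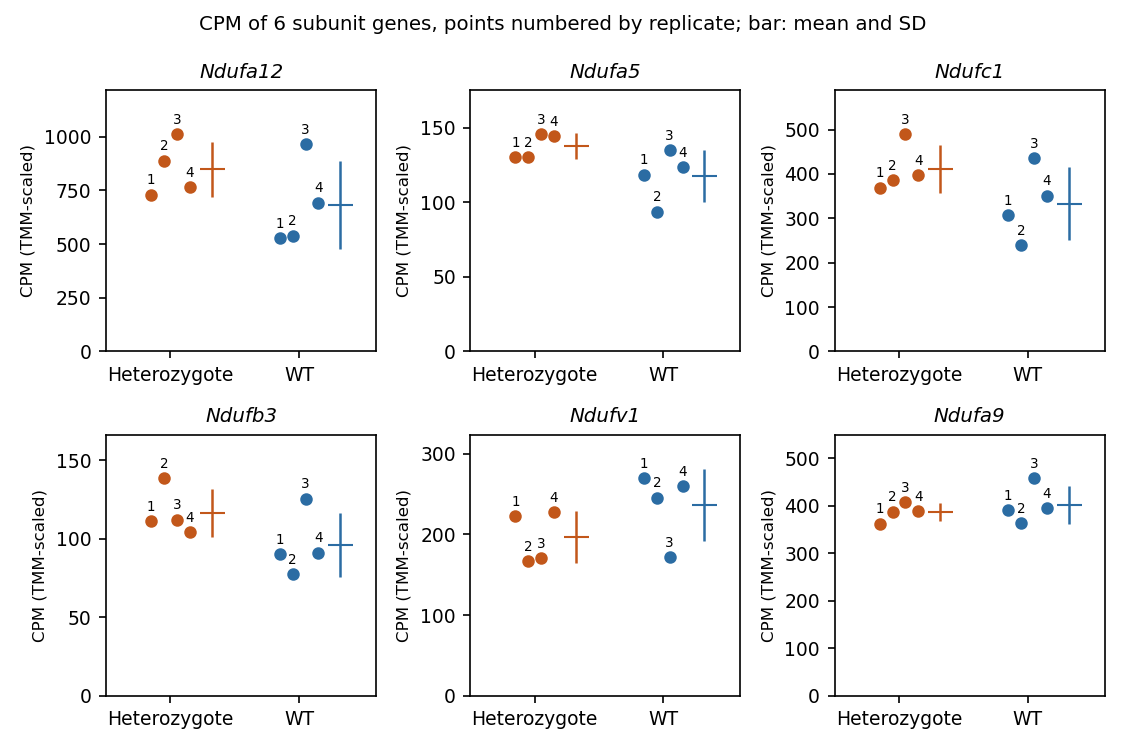
CPM (y axis, from 0) of 6 complex I subunit genes in 4 heterozygote libraries and 4 WT libraries, with points numbered by replicate and bars for mean and SD. For Ndufa12, Ndufa5, Ndufc1 and Ndufb3 the heterozygote mean is the higher and WT replicate 3 lies among the heterozygote points, while for Ndufv1 and Ndufa9 the WT mean is the higher; all 6 overlap.

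In the proximal membrane arm, next to the matrix arm, 7 of 9 genes had estimates above 0 and 2 below it, with a median of 0.13. Ndufc1 (chr3:51404677-51408988, minus strand, GRCm38), a small membrane subunit, had 368, 386, 489.9 and 398 CPM in heterozygote replicates 1 to 4, against 307, 239, 436 and 351 CPM in WT replicates 1 to 4. Its ratio of the highest to the lowest library, 2.05, was the widest of the set, and WT replicates 1, 2 and 4 lay below every heterozygote library. The log2 fold change was 0.30 (SE 0.18, edgeR adjusted p = 0.850, exact permutation p = 0.171).

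Ndufa1 had 227, 265, 275 and 225 CPM in heterozygote replicates 1 to 4, against 183, 157, 273 and 256 CPM in WT replicates 1 to 4. WT replicates 3 and 4 lay inside the heterozygote range, and the log2 fold change was 0.19 (SE 0.18, exact permutation p = 0.314). Ndufs5 and Ndufa8, proteins of the intermembrane space side with paired cysteine motifs, stood at 0.21 and 0.19, and Ndufa13, also known as Grim-19, at 0.13. Ndufa3 was at 0.03, and Ndufc2 and Ndufa11 at 0.00 and -0.00. Ndufa10, a kinase-like subunit of the matrix face, was at -0.02 with the narrowest WT range of the set, 153, 157, 156 and 156 CPM in WT replicates 1 to 4, beside 149, 172, 137 and 156 CPM in heterozygote replicates 1 to 4.

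All 11 genes of the distal membrane arm had estimates above 0, with a median of 0.14 and values from 0.02 to 0.28. The medians of the N module, the proximal arm and the distal arm were 0.07, 0.06 and 0.05 without WT replicate 2 and 0.25, 0.22 and 0.27 without WT replicate 3. Ndufb3 (chr1:58586384-58595964, plus strand, GRCm38), an accessory subunit of that arm, had 111, 138, 112 and 104 CPM in heterozygote replicates 1 to 4, against 90.0, 77.4, 125 and 91.0 CPM in WT replicates 1 to 4. WT replicates 1, 2 and 4 lay below every heterozygote library, and WT replicate 3 lay above 3 of them. The log2 fold change was 0.28 (SE 0.17, edgeR adjusted p = 0.850, exact permutation p = 0.114). Ndufb2 had 76.0, 91.3, 94.4 and 96.3 CPM in heterozygote replicates 1 to 4, against 69.3, 61.5, 106 and 82.4 CPM in WT replicates 1 to 4. Its groups overlapped, with WT libraries at both ends, and its log2 fold change was 0.17 (SE 0.18, exact permutation p = 0.371).

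Ndufb4 and Ndufb11 stood at 0.20 and 0.21, Ndufb6, Ndufb7 and Ndufb10 at 0.14, 0.14 and 0.13, and Ndufb8, Ndufb5 and Ndufb9 at 0.11, 0.08 and 0.07. Ndufab1, the mitochondrial acyl carrier protein, which also serves lipoic acid and iron-sulfur cluster synthesis, was the lowest of the group at 0.02. Exons shared with another gene on the same strand made up 19.5% of the exonic bases of Ndufb9, 4.26% of Ndufb8 and 2.58% of Ndufb2, so their counts are less certain. Ndufb1-ps, which the rule left out by its symbol and which the annotation lists as a long non-coding RNA, averaged 329 ± 22.3 TPM in heterozygote libraries and 316 ± 35.6 TPM in WT libraries (SD, n = 4 each), with a log2 fold change of 0.12.

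Ndufa4, first described as a complex I subunit and since assigned to cytochrome c oxidase (complex IV), had 528, 599, 679.5 and 609.6 CPM in heterozygote replicates 1 to 4, against 489.8, 413, 665 and 593 CPM in WT replicates 1 to 4. WT replicates 1 and 2 lay below the heterozygote range and the other WT libraries inside it. The log2 fold change was 0.16 (SE 0.15, exact permutation p = 0.343), and -0.04 with the GC and length trends removed.

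The 7 nuclear genes of the catalytic core and the 29 accessory genes differed in how far they followed the library pattern. That pattern is the median over the whole set, which is mostly accessory genes, so their closer match to it is partly built in. Median deviations of the core genes were 0.01, 0.01, -0.03 and 0.09 in heterozygote replicates 1 to 4 and -0.14, -0.21, 0.16 and 0.14 in WT replicates 1 to 4. Those of the accessory genes were -0.09, 0.11, 0.21 and 0.07 in heterozygote replicates 1 to 4 and -0.21, -0.40, 0.26 and 0.02 in WT replicates 1 to 4. Of the core genes 5 had estimates above 0 and 2 below it, with a median of 0.04, and of the accessory genes 26 and 3, with a median of 0.14. The core median was -0.02 with scaling by library size alone, -0.02 without WT replicate 1 and -0.03 without WT replicate 2, and reached 0.10 without WT replicate 4. The difference between these classes was not tested, and they also differed in principal transcript length (medians of 1623 and 763 bases) and GC content (54.1% and 50.3%).

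Partners of the nuclear subunits were described in the same way. Of 16 assembly factors, which build the complex without staying in it, 15 were matched and tested, with 11 estimates above 0 and 4 below it, a median of 0.07 and no call. The median ran from 0.02 without Heterozygote replicate 2 to 0.20 without WT replicate 3, and was 0.01 with scaling by library size alone. Ndufaf3, which helps assemble the Q module, had 52.3, 54.4, 51.4 and 59.5 CPM in heterozygote replicates 1 to 4, against 43.7, 47.0, 48.1 and 39.9 CPM in WT replicates 1 to 4. Every heterozygote library lay above every WT library, with a log2 fold change of 0.28 (SE 0.14, edgeR adjusted p = 0.850, exact permutation p = 0.0286). Foxred1, a flavoprotein assembly factor, had 35.9, 26.4, 30.8 and 28.0 CPM in heterozygote replicates 1 to 4, against 52.6, 48.3, 34.2 and 53.2 CPM in WT replicates 1 to 4. WT replicate 3 alone lay inside the heterozygote range, and the log2 fold change was -0.64 (SE 0.19, edgeR adjusted p = 0.850, exact permutation p = 0.0571). Tmem186, a membrane assembly factor, stood at -0.37 (SE 0.17, edgeR adjusted p = 0.850).

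Of the 7 complex I subunits of the mitochondrial genome, which form the proton-pumping membrane core, 6 passed the filter on low counts and mt-Nd4l did not. Their spread between libraries was wider than that of the nuclear subunits and had another order. Median deviations were 0.04, -0.01, -0.02 and 0.53 in heterozygote replicates 1 to 4 and -0.79, -0.63, 0.25 and 0.54 in WT replicates 1 to 4, so replicate 4 of each genotype was high and WT replicates 1 and 2 low. Of the 6 genes 5 had estimates above 0 and none was called, with a median of 0.23 that ran from 0.05 without WT replicate 1 to 0.50 without WT replicate 4. With the GC and length trends removed it was 0.025. mt-Nd2 averaged 434 ± 39.0 CPM in heterozygote libraries and 346 ± 128 CPM in WT libraries. mt-Nd3, the 1 gene below 0, had 3.41, 3.80, 3.27 and 3.48 CPM in heterozygote replicates 1 to 4, against 4.10, 5.15, 5.74 and 4.49 CPM in WT replicates 1 to 4, without overlap but at a low level (log2 fold change -0.48, SE 0.35, exact permutation p = 0.0286).

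**Figure D5:**
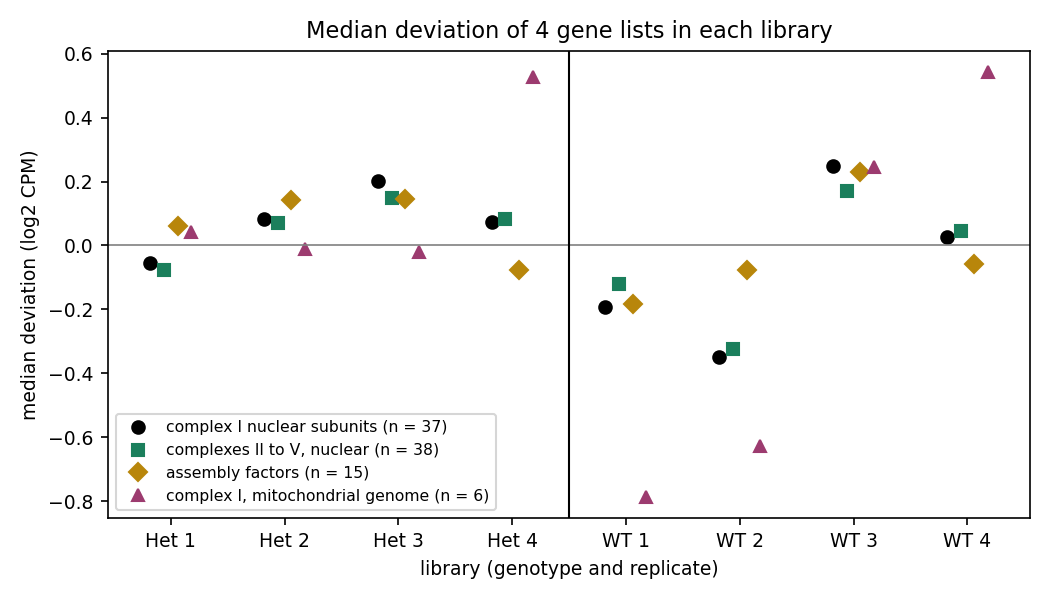
Median deviation of 4 gene lists (y axis, log2 CPM minus each gene's mean over 8 libraries) in 4 heterozygote libraries and 4 WT libraries (x axis). Nuclear subunits of complex I and of complexes II to V lie close together in each library, with medians of -0.35 and -0.32 in WT replicate 2, while mitochondrial-genome subunits reach -0.79 in WT replicate 1 and 0.53 and 0.54 in replicate 4 of the heterozygotes and WT.

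The nuclear genes of complexes II to V, the rest of the respiratory chain and ATP synthase, followed nearly the same library order as complex I. Their median deviations were -0.08, 0.07, 0.15 and 0.08 in heterozygote replicates 1 to 4 and -0.12, -0.32, 0.17 and 0.05 in WT replicates 1 to 4. Of 38 genes 26 had estimates above 0 and 12 below it, with a median of 0.09 and none called. The median was 0.01 without WT replicate 2 and 0.16 without WT replicate 3, 0.03 with scaling by library size alone and 0.05 with the GC and length trends removed. Cyc1, the cytochrome c1 of complex III, had 177, 136, 166 and 180.3 CPM in heterozygote replicates 1 to 4, against 209.8, 195, 213 and 184 CPM in WT replicates 1 to 4. Its groups did not overlap, the heterozygotes being lower, with a log2 fold change of -0.28 (SE 0.12, edgeR adjusted p = 0.850, exact permutation p = 0.0286). Atp5j2, a small membrane subunit of ATP synthase, stood at 0.35 (SE 0.16) with overlapping groups.

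Of 12 genes that regulate mitochondrial biogenesis 3 had estimates above 0 and 9 below it, with a median of -0.13 and none called, where 48.0% of all genes tested were above 0. The median ran from -0.22 without Heterozygote replicate 3 to -0.07 without WT replicate 1, and was -0.24 with the GC and length trends removed. Tfam, which packages and transcribes mitochondrial DNA, stood at 0.25 (SE 0.16), and Tfb2m, a mitochondrial transcription initiation factor, at -0.32 (SE 0.20). Of 10 genes that supply NADH to complex I, 4 had estimates above 0 and 6 below it, with a median of -0.03 and none called. That median ran from -0.06 without Heterozygote replicate 4 to 0.02 without Heterozygote replicate 2. Dlat, a core subunit of pyruvate dehydrogenase, had the lowest at -0.43 (SE 0.27, edgeR adjusted p = 0.851).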

How the data were processed

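Per the labels' protocols, 30 to 260 ng of total RNA a mouse, at a RIN over 8, went through ribosomal RNA depletion and strand-specific library preparation (11 PCR cycles, paired reads of 75 bases). The authors aligned reads to GRCm38 with STAR 2.5.1b, per the submitters' processing notes. The deposited values are raw fragment counts per gene (GENCODE M17), reverse-stranded and with both ends mapped, per the file headers. These name featureCounts 1.6.2 and the notes 1.5.1, a difference not resolved here. Fragments shared between genes on 1 strand went uncounted under these options.

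Symbols were matched through a GENCODE annotation on GRCm38 (53620 identifiers matched, 95 did not). edgeR 4.0.16 in R 4.3.3 was run on all counts: filterByExpr, TMM, robust quasi-likelihood with genotype as the only term, Benjamini-Hochberg adjustment over 13992 genes, threshold 0.05. CPM values are TMM-scaled, TPM values use the union of exons. Fold changes are Heterozygote over WT. Exact permutation tests of log2 CPM were two-sided. DESeq2 1.42.0, limma 3.58.1, other scalings and filters, trend removal and leaving out each library were alternatives. The procedure was tested on simulated data.

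The labels give no batch and do not say whether mice were littermates. Every pair of libraries differed beyond sampling noise (lowest chi-square per degree of freedom 35.44 over 28 pairs), so all 8 were kept. Members and gene lists were chosen with earlier results of these data known, so no list was tested. Genes given library by library were the 2 highest and 2 lowest by TPM, the 3 with the smallest unadjusted p in each direction, the smallest p of each role group, and, of other lists, up to 3 by unadjusted p. An item that the rule or a marker list takes is not reported singly here, though counts and medians include it. The library values of Ndufa10 were added after they were seen.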

Additional observations from a re-analysis of the deposited data

Results flagged for a closer look

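In 2 of 74 groups of 4 libraries, 1 library stood apart from the other 3 by Dixon's ratio of gap to range (above its 95% critical value), which chance gives in about 1 of 20 groups. Ndufa13, a membrane subunit, had 562 CPM in Heterozygote replicate 3 and 493 to 498 CPM in the other heterozygote libraries (ratio 0.921). Ndufs4, an N module subunit, had 162 CPM in Heterozygote replicate 2 and 145 to 148 CPM in the other heterozygote libraries (ratio 0.848).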

How the results depend on the processing

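Under 18 alternatives no subunit gene passed the threshold. edgeR called 0 genes of the whole table, while DESeq2 called 29. The subunit genes with an unadjusted p under 0.05 numbered 0 in the result reported, 3 with limma-voom (Ndufa12, Ndufc1, Ndufb3) and 2 with the replicate block (Ndufc1, Ndufa12), and 0 to 9 with 1 library left out. The 9, without WT replicate 3, were Ndufa12, Ndufb3, Ndufv2, Ndufc1, Ndufv1, Ndufa8, Ndufa7, Ndufb10 and Ndufa5, where 12.5% of all genes also passed that unadjusted value and 0 were called after adjustment. The labels do not say whether equal replicate numbers mark paired libraries, and such pairing was not tested. The correlations of deviations between equal numbers were 0.04, 0.01, 0.10 and 0.02, all under 0.1. Of the 8 libraries, 4 correlated best with their own number. The replicate block changed no call. With GC and length trends removed, an alternative chosen after seeing the data, Ndufa4 changed sign to -0.036 on the log2 scale. With 1 library left out, Ndufa9 ran from -0.087 without WT replicate 2 to 0.014 without WT replicate 3. It was -0.095 with GC and length trends removed and -0.114 with scaling by library size alone. The cause was not tested. By principal transcript length, also chosen after seeing the data, Ndufa12 ranked 4 and Ndufa1 6, and by CPM Ndufa1 ranked 20, Ndufs1 30 and Ndufb2 35. With 4 mice a genotype, the exact test cannot go below 0.0286, and the intervals leave changes under 1.5-fold unresolved for most subunit genes.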
